A study of Mus musculus with 4 samples.

Results

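Elastic fibre and microfibril genes were examined in mouse embryonic fibroblasts (MEFs) undergoing reprogramming to induced hepatocytes. The group holds 10 of the 55397 genes listed in the expression table, and they were selected by gene name. They are the elastin gene Eln, the microfibril genes Fbn1, Mfap4 and Mfap5, the fibulin genes Fbln1, Fbln2 and Fbln5, the lysyl oxidase genes Lox and Loxl1, and Emilin1. The group was put together with the difference between the study's conditions already known. Differences between the conditions are therefore given for these genes as a description, without p-values.

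The MEFs came from limbs of E13.5 C57BL/6J embryos homozygous for a floxed Prox1 allele (Prox1 fl/fl), and tissue of several embryos was pooled per preparation. All cultures received the 4-in-1 lentivirus, which carries the liver reprogramming factors. In addition they received GFP-tagged Cre recombinase (labelled Prox1 KO, 2 libraries) or GFP-tagged ΔCre, an inactive form of the enzyme (control, 2 libraries). RNA of whole cultures was collected at day 14, with no sorting step described, so converted and unconverted fibroblasts were measured together. The labels give each group replicates 1 and 2, and same-numbered libraries are called a pair here. The libraries held 42469031 to 48524008 reads on genes. Normalized counts, the authors' read counts divided by a library size factor, were compared with limma across all 15809 genes that had a mean of at least 10. A gene was called when its Benjamini-Hochberg adjusted p over all these genes was under 0.05. The fit used the replicate number as a block, since the study treated the primary MEF line as a covariate. Prox1 itself had 72.7 (replicate 1) and 61.6 (replicate 2) normalized counts under the Prox1 KO label, against 60.6 and 25.5 in the controls, so its count over the whole gene was not lower where it had been targeted. Reads over the deleted part could not be separated. Directions below rest on the labels.

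Elastic fibres give stretchable tissues their recoil. Fibrillin monomers assemble into microfibrils, tropoelastin is deposited on this scaffold with the help of fibulins, and lysyl oxidases then cross-link it into an insoluble core. Fibroblasts and smooth muscle cells make most of these proteins, and in liver the fibres lie mainly around vessels and portal tracts and accumulate in fibrosis.

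RefSeq promoter sequences on GRCm38.p6 were at hand for 5 of the 10 genes, namely Emilin1, Fbln1, Fbln2, Fbln5 and Fbn1. The 250 bases upstream of the annotated start are printed for Fbln1 and Fbln5, 5′ to 3′ on the gene's strand. These are the fibulins called lower by limma with the replicate block, and DESeq2 did not keep the call of Fbln5. The windows of the other 3 genes lie within longer annotated spans of the genes and are given by their matches only. Capitals mark any of 6 short motifs searched on both strands. The AP-1 site was searched as TGANTCA, the letters bound by Fos and Jun family factors. The SMAD-binding element, read by mediators of TGF-β signalling, was searched as CAGAC. The TEAD site, bound by the partners of the Hippo pathway, was searched as GGAATG. Of the core promoter elements, the TATA box was searched as TATAAA, the GC box, bound by Sp family factors, as GGGCGG, and the CCAAT box by its name.
Fbln1, chr15:85205699-85205948, plus strand: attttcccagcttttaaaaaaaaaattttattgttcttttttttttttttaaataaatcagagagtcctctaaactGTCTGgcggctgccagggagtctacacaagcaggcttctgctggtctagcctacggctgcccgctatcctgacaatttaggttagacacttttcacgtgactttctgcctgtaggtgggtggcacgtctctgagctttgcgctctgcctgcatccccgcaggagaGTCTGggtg
Fbln5, chr12:101819120-101819369, minus strand: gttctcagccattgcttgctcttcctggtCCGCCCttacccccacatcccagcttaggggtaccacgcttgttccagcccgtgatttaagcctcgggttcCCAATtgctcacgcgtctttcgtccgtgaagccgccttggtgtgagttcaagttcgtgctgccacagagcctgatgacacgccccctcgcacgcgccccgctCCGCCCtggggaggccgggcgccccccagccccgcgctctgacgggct

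The Fbln1 window held 2 SMAD-binding elements, both on the opposite strand. The Fbln2 window held 1 GC box, and the Fbln5 window held 2 GC boxes and 1 CCAAT box. Among 32851 annotated upstream windows of the same length, 42.2% held the SMAD-binding element, 32.7% the GC box and 33.8% the CCAAT box, so matches of this kind were common. In the other windows, which are not printed, Emilin1 had 2 SMAD-binding elements and Fbn1 had 1 GC box. The AP-1 site, found in 6.75% of all windows, the TEAD site, in 12.6%, and the TATA box, in 12.4%, had no match in the 5 windows. The fibulin windows also differed in base composition, with a GC content of 46.4% for Fbln1, 58.8% for Fbln2 and 65.2% for Fbln5, against a median of 52.4% over all windows. A match describes these letters only and is not evidence of binding.

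Most of the 10 genes were strongly expressed. For levels between genes, recovered reads were divided by exonic length and expressed on the scale of TPM, called the length-scaled level. By the mean of this level over the 4 libraries, 9 of the 10 genes stood above the 90th percentile of the genes tested. Fbln2 was highest, with a length-scaled level of 1281 ± 178 (SD, n = 4), followed by Lox with 953 ± 25.3, Loxl1 with 566 ± 23.3 and Fbn1 with 527 ± 41.1. Emilin1 had 225 ± 30.2, Mfap4 165 ± 65.6, Eln 123 ± 18.1, Fbln1 122 ± 29.5 and Fbln5 109 ± 6.86. Mfap5 was lowest, with 21.4 ± 3.23, at percentile 60.2. The ranges of neighbours in this order overlapped between Loxl1 and Fbn1 and from Emilin1 down to Fbln5, and Fbln2, Lox and Mfap5 stood apart from their neighbours. Eln moved most with the length used. Its level was 196 when scaled by the longest transcript, which would place it above Mfap4.

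**Figure D1:**
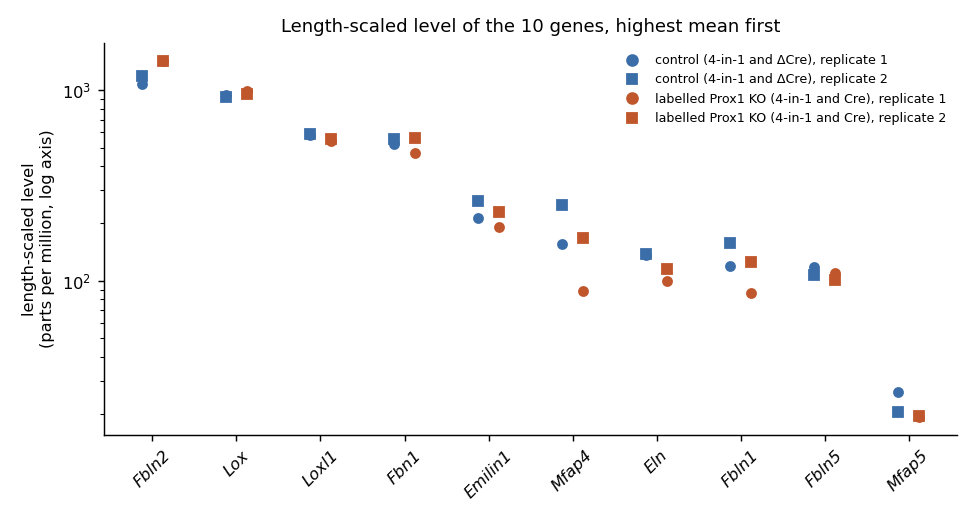
Length-scaled level (TPM scale, log axis) of the 10 genes in each of the 4 libraries, ordered by mean, with circles for replicate 1 and squares for replicate 2. Fbln2 and Lox stand highest, near 1281 and 953, and Mfap5 lowest, near 21.4.

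Between the groups, 7 of the 10 genes were called lower and 1 higher in the libraries labelled Prox1 KO, where 6.29% of all genes tested were called lower and 5.09% higher. The genes called lower were Mfap4, Fbln1, Eln, Mfap5, Emilin1, Loxl1 and Fbln5. Fbln2 was the gene called higher, and Fbn1 and Lox were not called. All 10 genes had the same direction in both pairs, as did 65.8% of all genes tested. Their median log2 fold change was -0.17, against -0.0022 over all genes tested. The calls depended on the pairing of the libraries and on the method. Without the replicate block, 0 of the 10 genes were called by limma, with 3 lower and 1 higher at an unadjusted p under 0.05, where 6.26% of all genes tested were lower and 5.02% higher at that p. DESeq2 with the block called 4 lower (Mfap4, Fbln1, Eln and Emilin1) and 1 higher (Fbln2), where it called 2.07% and 1.76% of the 12595 genes it gave an adjusted p. Quantile normalization with the block called 5 lower, losing Mfap5 and Loxl1, and 1 higher, where it called 786 lower and 666 higher of all 15809 genes tested. The cultures were measured in bulk, so fewer cells of a type and less RNA per cell cannot be told apart.

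**Figure D2:**
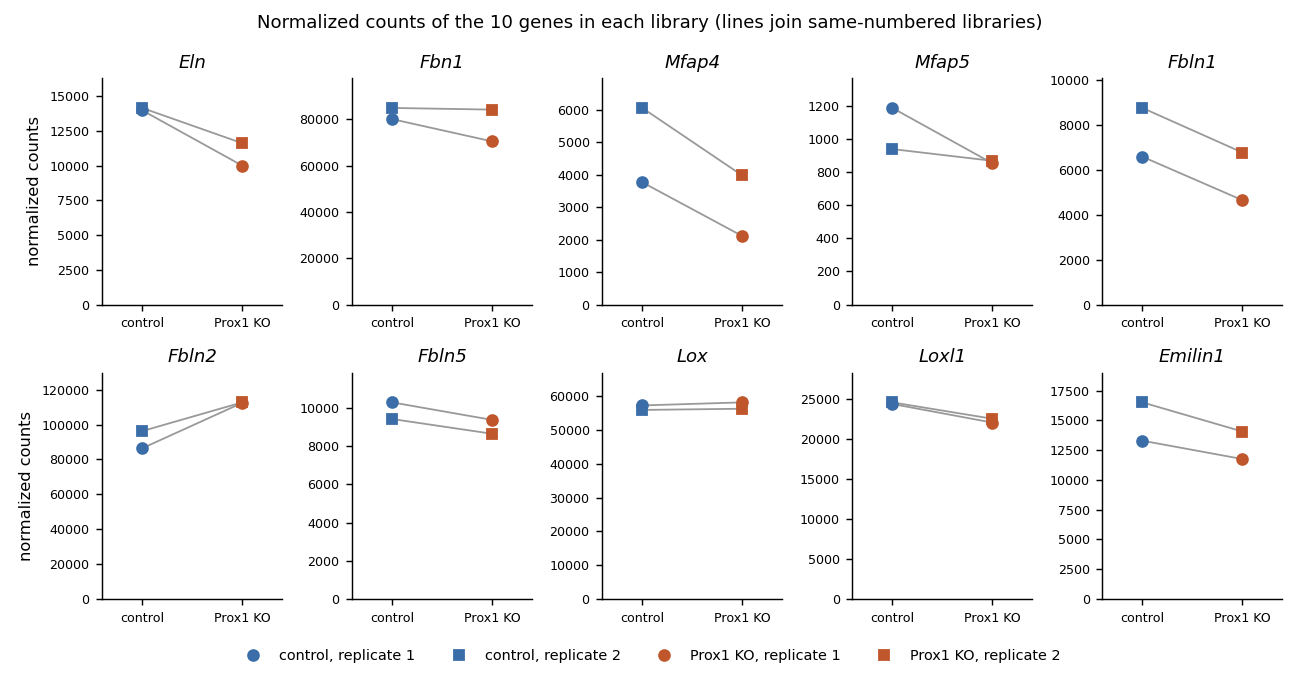
Normalized counts of each of the 10 genes in the control libraries and the libraries labelled Prox1 KO, each axis starting at 0, with lines joining same-numbered libraries. For Mfap4 and Fbln1 both lines slope down, while replicate 2 lies above replicate 1 in both groups.

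Elastin, the extensible core protein, was lower in both pairs. Eln (ENSMUSG00000029675; chromosome 5, 134702593 to 134747323, minus strand, GRCm38) had 10000.1 (replicate 1) and 11614 (replicate 2) normalized counts under the Prox1 KO label, against 13979 and 14149 in the controls. The groups did not overlap, and the control libraries lay close together. The log2 fold change was -0.38 (standard error 0.05), with -0.48 in pair 1 and -0.28 in pair 2. An antisense gene, Gm30003, overlaps 267 exonic bases of Eln. How strand was treated in counting is not given in the sources used here, so reads of such antisense genes cannot be told apart.

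Among the microfibril genes, Mfap4 had the largest fitted difference of the 10 with all 4 libraries. It encodes a fibrinogen-related glycoprotein that binds elastin and fibrillin. Mfap4 (ENSMUSG00000042436; chromosome 11, 61485431 to 61488900, plus strand) had 2111 (replicate 1) and 3977 (replicate 2) normalized counts under the Prox1 KO label, against 3768 and 6059 in the controls. The groups overlapped, since replicate 2 labelled Prox1 KO exceeded the control of replicate 1, and within each pair the library labelled Prox1 KO was lower. The log2 fold change was -0.72 (standard error 0.05), or 0.606 of the control level, with -0.84 in pair 1 and -0.61 in pair 2. With single libraries left out and no block, it was -0.26 without replicate 1 labelled Prox1 KO, smaller in size than that of Fbln2, Mfap5 and Eln, -1.18 without replicate 2 labelled Prox1 KO and -0.38 without replicate 2 of the controls.

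Mfap5 encodes the small microfibril-associated glycoprotein MAGP-2. Mfap5 (ENSMUSG00000030116; chromosome 6, 122505845 to 122529290, plus strand) had 852 (replicate 1) and 867 (replicate 2) normalized counts under the Prox1 KO label, against 1186 and 938 in the controls. The control of replicate 1 stood above the other 3 libraries, and the log2 fold change of -0.29 (standard error 0.08) was -0.48 in pair 1 and -0.11 in pair 2. Unpaired, it was -0.13 without replicate 1 of the controls and -0.46 without replicate 2 of the controls. Neither quantile normalization nor DESeq2 kept the call. With 820 to 1292 reads per library, it had the fewest reads of the 10 genes.

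Fbn1, the gene of fibrillin-1, which forms the backbone of microfibrils, was not called. Fbn1 (ENSMUSG00000027204; chromosome 2, 125300594 to 125507993, minus strand) had 70477 (replicate 1) and 84208 (replicate 2) normalized counts under the Prox1 KO label, against 80099 and 84938 in the controls. The groups overlapped. The log2 difference was -0.10 (standard error 0.05), with -0.18 in pair 1 and -0.012 in pair 2. An antisense gene, Gm9913, overlaps 2442 exonic bases of Fbn1. Of the stretches of 100 bases in the longest Fbn1 transcript, 19.7% are found in another gene on either strand. That search counts the antisense overlap itself, so it is not a separate limit.

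The fibulins, glycoproteins that link elastin, microfibrils and cells, went in opposite directions. Fbln1 (ENSMUSG00000006369; chromosome 15, 85205949 to 85286535, plus strand) had 4642 (replicate 1) and 6762 (replicate 2) normalized counts under the Prox1 KO label, against 6577 and 8747 in the controls. The groups overlapped narrowly, and each pair was lower in the library labelled Prox1 KO. Its log2 fold change was -0.44 (standard error 0.04), with -0.50 in pair 1 and -0.37 in pair 2. Unpaired, it was -0.17 without replicate 1 labelled Prox1 KO, -0.71 without replicate 2 labelled Prox1 KO and -0.23 without replicate 2 of the controls.

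Fbln2, the most abundant of the 10 genes by length-scaled level, was higher. Fbln2 (ENSMUSG00000064080; chromosome 6, 91212455 to 91272540, plus strand) had 112460.3 (replicate 1) and 112746 (replicate 2) normalized counts under the Prox1 KO label, against 86384 and 96262 in the controls. The groups did not overlap, and the libraries labelled Prox1 KO were nearly equal. The log2 fold change was 0.30 (standard error 0.05), with 0.38 in pair 1 and 0.23 in pair 2. The log2 ratio of Fbln2 to Fbln1 normalized counts was 4.60 and 4.06 under the Prox1 KO label, against 3.72 and 3.46 in the controls. This restates the opposite differences of both genes and was not tested. Of the ratios formed between these genes, it had the largest shift.

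Fbln5 encodes the fibulin that brings tropoelastin and LOXL1 to the microfibril. Fbln5 (ENSMUSG00000021186; chromosome 12, 101746565 to 101819055, minus strand) had 9365 (replicate 1) and 8641 (replicate 2) normalized counts under the Prox1 KO label, against 10283 and 9412 in the controls. The groups were separated by less than the difference between replicates of either group. The log2 fold change was -0.13 (standard error 0.04), with -0.13 in pair 1 and -0.12 in pair 2. Unpaired, it was -0.071 without replicate 2 labelled Prox1 KO and -0.065 without replicate 1 of the controls, and DESeq2 did not keep the call.

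The lysyl oxidases, copper enzymes that oxidize lysines of elastin and collagen for cross-linking, differed little between the groups. Lox (ENSMUSG00000024529; chromosome 18, 52516067 to 52529867, minus strand) had 58206 (replicate 1) and 56325 (replicate 2) normalized counts under the Prox1 KO label, against 57305 and 55969 in the controls. The groups overlapped, and the log2 difference was 0.016 (standard error 0.042), with 0.023 in pair 1 and 0.0091 in pair 2. Its sign turned with quantile normalization, to -0.018. Loxl1 (ENSMUSG00000032334; chromosome 9, 58287738 to 58313186, minus strand), whose enzyme acts on elastin, had 22006 and 22484 under the Prox1 KO label, against 24327 and 24526 in the controls. These groups did not overlap, with a log2 fold change of -0.14 (standard error 0.04), a call that quantile normalization and DESeq2 did not keep.

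Emilin1 encodes a glycoprotein found where elastin meets the microfibril. Emilin1 (ENSMUSG00000029163; chromosome 5, 30913402 to 30921277, plus strand) had 11750.1 (replicate 1) and 14061 (replicate 2) normalized counts under the Prox1 KO label, against 13290.1 and 16507 in the controls. The groups overlapped, with both pairs lower in the library labelled Prox1 KO. The log2 fold change was -0.20 (standard error 0.04), with -0.18 in pair 1 and -0.23 in pair 2. Unpaired, it was -0.075 and -0.33 without replicates 1 and 2 labelled Prox1 KO, and -0.36 and -0.048 without replicates 1 and 2 of the controls.

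Of the 10 genes, 5 had groups that did not overlap (Eln, Mfap5, Fbln5 and Loxl1 lower, Fbln2 higher), where 44.4% of all genes tested had such groups. The summed reads of the 10 genes took 0.676% and 0.715% of all reads under the Prox1 KO label, against 0.667% and 0.702% in the controls. The sum was thus much the same in both groups. Within it, mean normalized counts were higher for Fbln2 under the Prox1 KO label (112603 against 91323). They were lower for the 7 genes called lower and for Fbn1 (77342 against 82519), which was not called. The calls depended on the block and the method, as given above.

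**Figure D3:**
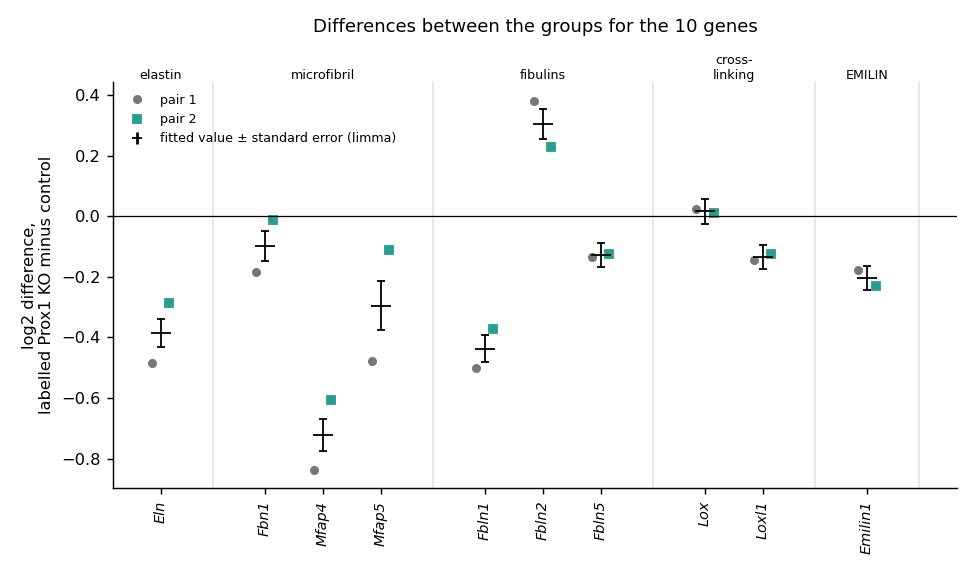
Log2 difference, labelled Prox1 KO minus control, of the 10 genes ordered by role, with circles for pair 1, squares for pair 2 and black ticks with error bars for the fitted value ± standard error from limma. Mfap4 at -0.72 lies lowest and Fbln2 at 0.30 highest, and Lox lies at 0.016, or -0.018 with quantile normalization.

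To place these genes in the wider assembly pathway, 34 other genes of elastic fibre assembly and turnover were taken by role, a list also made with earlier results of these data known. Of these, 31 could be tested, and 10 fell and 3 rose in the libraries labelled Prox1 KO (adjusted p under 0.05 from limma), where 6.29% and 5.09% of all genes tested did, with a median log2 fold change of -0.12. DESeq2 with the block called 4 lower (Mfap2, Ltbp4, Thsd4 and Mmp2) and 1 higher (Loxl3), and quantile normalization lost Adamtsl3, Emilin3, Ltbp2 and Loxl4. Without the block limma called 0, with 6 lower and 2 higher at an unadjusted p under 0.05. As the list was not made blind to these data, the p-values printed for its genes are a description too.

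Of 12 other microfibril and latent TGF-β binding protein genes, 5 fell, 1 rose and 6 did not pass. Mfap2, which encodes MAGP-1, the relative of MAGP-2, had 3598 (replicate 1) and 5376 (replicate 2) normalized counts under the Prox1 KO label, against 5826 and 7360 in the controls, without overlap. It fell by 0.57 in log2 units (standard error 0.05, limma adjusted p = 4.03e-06). Ltbp4, whose protein takes part in elastin assembly, fell from 4326 and 4881 in the controls to 3514 and 3890 (log2 fold change -0.31, adjusted p = 0.000238 from limma). Ltbp2, a microfibril protein that does not bind latent TGF-β, rose from 10406 and 10196 to 11394 and 11417 (log2 fold change 0.15, adjusted p = 0.0238 from limma). An antisense gene, D030025P21Rik, overlaps 764 exonic bases of Ltbp2. Thsd4, a gene of the ADAMTS-like family, fell by 0.39 in log2 units (limma, adjusted p = 0.00231), Adamtsl3 by 0.22 (adjusted p = 0.0335) and Adamts10 by 0.19 (adjusted p = 0.0296).

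Among 4 other fibulin family genes, Fbln7 and Hmcn1 fell and Efemp1 and Efemp2 did not pass. Fbln7 had 110 (replicate 1) and 220 (replicate 2) normalized counts under the Prox1 KO label, against 218 and 339 in the controls (log2 fold change -0.80, adjusted p = 0.00129 from limma). Hmcn1, which encodes the large matrix protein hemicentin, fell by 0.19 in log2 units (limma, adjusted p = 0.0165). DESeq2 called neither.

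Among 5 other cross-linking genes, Loxl3 and Loxl4 rose and Loxl2, Bmp1 and Atp7a did not pass. Loxl3, a lysyl oxidase relative, had 26852 (replicate 1) and 24406 (replicate 2) normalized counts under the Prox1 KO label, against 23860 and 21697 in the controls. Each pair was higher by 0.17 in log2 units (limma, adjusted p = 0.00989). Loxl4 rose by 0.16 (adjusted p = 0.0456 from limma). The lysyl oxidase family thus held a gene called lower (Loxl1), genes called higher (Loxl3 and Loxl4) and genes not called (Lox and Loxl2). An antisense gene, Htra2, overlaps 535 exonic bases of Loxl3.

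Of the EMILIN family, Emilin2 fell by 0.21 in log2 units (limma, adjusted p = 0.0117). Emilin3, with only 8 to 34 reads per library, fell by 1.25 (limma, adjusted p = 0.0434). DESeq2 did not call Emilin2 and gave no adjusted p for Emilin3. Mmrn2 did not pass and Mmrn1 was too low to test. Of 6 elastin-degrading proteases, Mmp2, a gelatinase that also cleaves elastin, had 94572 (replicate 1) and 138838 (replicate 2) normalized counts under the Prox1 KO label, against 131636 and 173281 in the controls. It fell by 0.40 (adjusted p = 0.000107 from limma), the groups overlapping as for Mfap4. Mmp9, Ctsk and Ctsl did not pass, and Mmp12 and Ctss were too low to test. The elastin receptor complex genes Glb1, Neu1 and Ctsa did not pass, with 1 of them (Neu1) lower at an unadjusted p under 0.05. Of all 15809 genes tested, 3751 had such a p from limma in either direction.

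**Figure D4:**
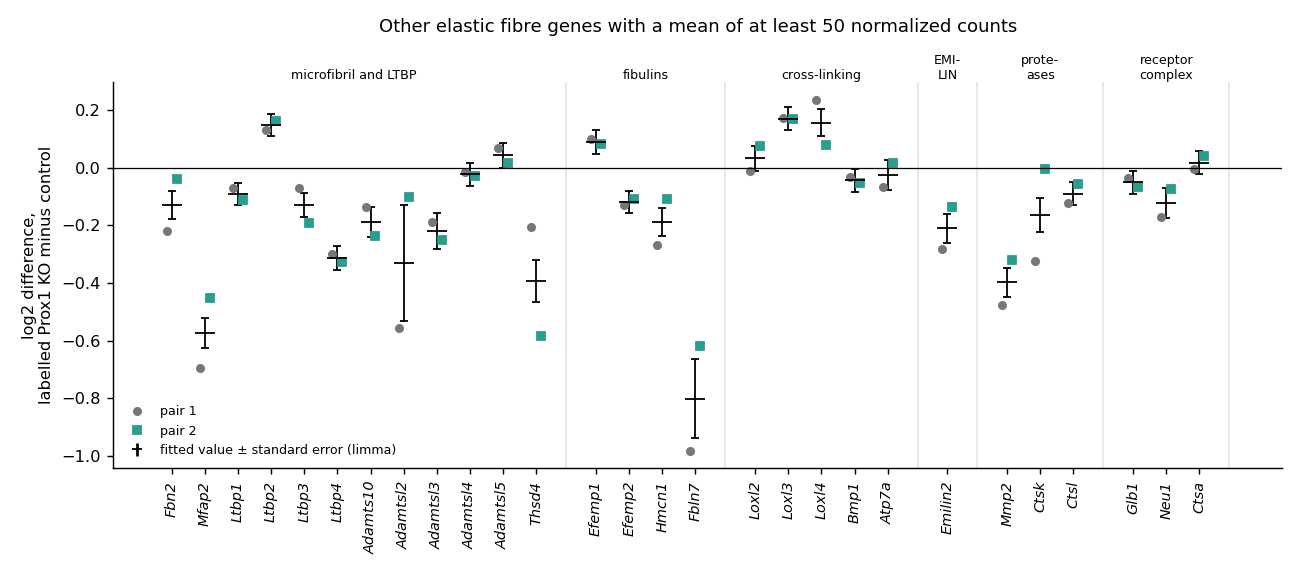
Log2 difference, labelled Prox1 KO minus control, of the 28 other elastic fibre genes whose mean was 50 normalized counts or more, drawn as in the plot of the 10 genes. Fbln7 at -0.80 and Mfap2 at -0.57 lie lowest, and Loxl3 at 0.17, Loxl4 at 0.16 and Ltbp2 at 0.15 highest.

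The difference between the replicate numbers was not used to choose the genes, and its p-values are given. It shares its standard error with the difference between the groups, so it is not wholly free of that choice. Of the 10 genes, 4 were higher in replicate 2 (adjusted p under 0.05 from limma) and none was called lower, where 7.88% of all genes tested were called, 4.39% higher and 3.49% lower. Mfap4 was higher in replicate 2 by 0.80 in log2 units (standard error 0.05, limma adjusted p = 7.94e-08), with 0.91 among the libraries labelled Prox1 KO and 0.68 among the controls. Fbln1 was higher by 0.48 (adjusted p = 4.22e-06) and Emilin1 by 0.29 (adjusted p = 0.000203). Fbn1 was higher by 0.17 (adjusted p = 0.0421), a call lost under 4 of 7 other settings. For Mfap4 and Fbln1 the difference between replicate numbers was thus about as large as that between the groups. For Emilin1 and Fbn1 it was larger in size than that between the groups, which was -0.20 and -0.10. Eln (0.12, adjusted p = 0.163), Fbln2 (0.080, adjusted p = 0.405), Lox (-0.041, adjusted p = 0.660), Loxl1 (0.021, adjusted p = 0.828), Mfap5 (-0.16, adjusted p = 0.303) and Fbln5 (-0.12, adjusted p = 0.0759) did not pass. What the replicate numbers stand for is not stated in the labels. Xist, transcribed from the inactive X chromosome, separated them, with 14495 and 13944 normalized counts in the replicate 1 libraries against 4.89 and 1.06 in both others. Its part in these differences was not tested.

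**Figure D5:**
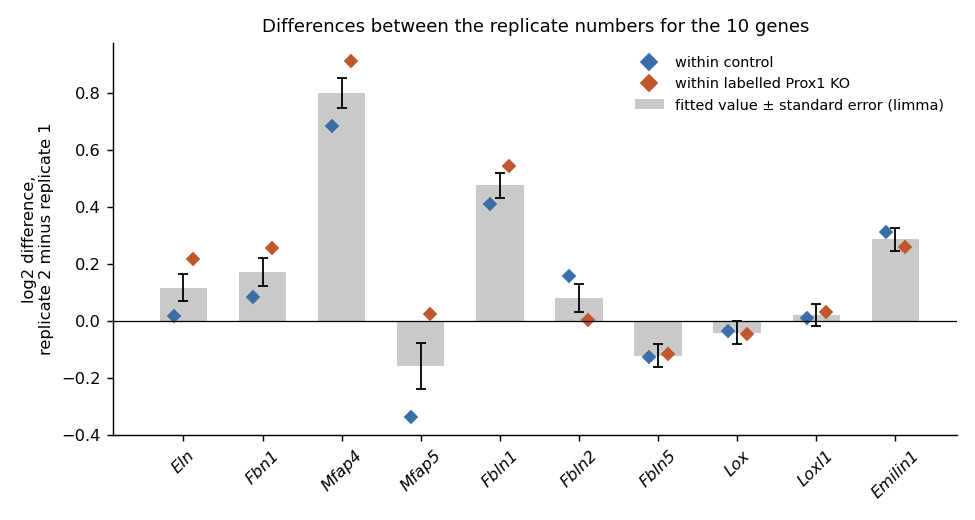
Log2 difference, replicate 2 minus replicate 1, of the 10 genes, with bars for the fitted value ± standard error from limma and diamonds for the difference within each group. Mfap4 at 0.80 and Fbln1 at 0.48 were higher in replicate 2 in both groups, and Lox at -0.041 and Loxl1 at 0.021 lie near 0.

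Markers of the cell types in the cultures were read beside these results. Of 10 fibroblast markers, 4 were called lower and 1 higher in the libraries labelled Prox1 KO, where 6.29% and 5.09% of all genes tested were. The summed normalized counts of these markers were 916949 and 1083481, against 977948 and 1158221 in the controls. Those highest in level were Col1a1 and Col1a2, which did not pass, and Col3a1, which fell by 0.43 in log2 units (limma, adjusted p = 0.000177). All 6 smooth muscle and myofibroblast markers were called higher, Acta2 by 0.27 (adjusted p = 0.000783 from limma), and their sum was 111408 and 102066 against 89387 and 87500. Of 8 hepatocyte markers, 7 were called lower, with sums of 19056 and 20821 against 27621 and 29258. The marker not called was Alb (log2 fold change -0.10, adjusted p = 0.158 from limma). Afp (-0.22, limma adjusted p = 0.00822) and Krt18 (-1.06, limma adjusted p = 6.28e-08), the others of highest level, were called lower. DESeq2 with the block called fewer, with 2 fibroblast markers lower and 0 higher, 4 smooth muscle markers higher and 4 hepatocyte markers lower. Without the block limma called 0 markers in either direction. The part of these cell types in the elastic fibre results was not tested. Chondrocyte, endothelial and macrophage lists of 5 markers each had summed normalized counts of at most 957, 1067 and 360. Each list held markers near 0, with at most 1.06 normalized counts for Matn1, 12.5 for Pecam1, 8.80 for Cdh5 and 9.77 for Ptprc, and 0 for Adgre1 in each library. Others were well above 0, with 774 to 872 for Sox9, 509 to 938 for Kdr, 106 to 174 for Tek, 159 to 232 for Cd68 and 71.7 to 104 for Csf1r, so these lists were not absent as a whole. Kdr alone of these 3 lists was called, higher by 0.67 (adjusted p = 4.75e-05 from limma).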

How the data were processed

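Bulk RNA-seq of MEFs at day 14 of reprogramming was analysed (2 libraries labelled Prox1 KO, 2 controls). The authors mapped paired-end reads to mm10 with STAR and deposited a signal per gene, read counts divided by DESeq2 size factors. The counting tool and annotation release are not given in the sources used here. A second deposited table, not used here, holds their DESeq2 comparison. In each library 100% of positive values were whole multiples (tolerance 0.01) of its smallest value, so reads were recovered. No per-sample column was left unused.

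Genes with a mean of at least 10 were tested on log2(normalized counts + 1), which understates changes of low genes, with limma 3.58.1 (R 4.3.3, intensity trend, replicate block). Deviations of same-numbered libraries correlated across genes (0.402). The standard errors and p-values from limma use a variance moderated across all genes tested, so they are not each gene's own spread. With 2 libraries a group, they cover only these samples. An exact unpaired permutation test of 2 against 2 libraries could not go below 0.333, and one within pairs has fewer arrangements still. The alternatives were edgeR 4.0.16, DESeq2 1.42.0, no block, other pseudocounts and filters, quantile normalization and left-out libraries. Same-group libraries differed beyond sampling noise in 34.3% and 35.4% of genes. The scripts were tested on simulated data. Coordinates and lengths are from GENCODE vM21, which matched 55137 of 55397 identifiers. Motifs, the 10 genes and all lists were chosen with earlier results of these data known. Named are the 10 genes, each related gene past the threshold and up to 3 of the most abundant markers per list. Xist, Prox1, related genes that did not pass and markers near 0 (Matn1, Pecam1, Cdh5, Ptprc, Adgre1) were named after their values were seen.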

Additional observations from a re-analysis of the deposited data

Results flagged for a closer look

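For 5 marker genes with low counts, the libraries labelled Prox1 KO lay above the control in one replicate pair and below it in the other, and the difference between pairs was not tested. The log2 differences in pairs 1 and 2 were 0.46 and -0.67 for Col2a1, -0.80 and 0.30 for Col9a1, -0.71 and 0.50 for Tek, 2.37 and -0.47 for Emcn, and -0.080 and 0.25 for Lyz2. None of the 10 elastic fibre genes differed in this way. Outside the screen some genes did, among them the marker Thy1 (-0.071 and 0.094) and the related gene Loxl2 (-0.010 and 0.075).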

How the results depend on the processing

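Without the replicate block, limma called 0 genes lower and 0 higher overall (1783 at an unadjusted p under 0.05), and 0 of the 10 elastic fibre genes, 0 of the related genes and 0 of the markers in either direction. DESeq2 with the replicate block called 261 genes lower and 222 higher overall against 994 and 804, 4 of the 10 genes lower, 4 related genes lower and 1 higher, and 6 markers lower and 5 higher against 11 and 8. Quantile normalization left 1 related gene higher in place of 3. The cause was not tested. edgeR, the other pseudocounts and the other filters kept these counts within 1.5 times. Leaving out 1 library at a time, without the replicate block, gave 0 to 105 genes lower and 0 to 13 higher, 0 to 1 of the 10 genes lower and 0 to 0 higher, 0 to 1 related genes lower and 0 to 0 higher, and 0 to 5 markers lower and 0 to 2 higher. The upper ends came without replicate 2 labelled Prox1 KO, when Eln was the gene of the 10 called and Mfap2 the related gene. A lone library is assumed there to vary like the other group. With 1 library left out, the median log2 fold change of the 10 genes ranged from -0.27 to -0.14 and that of the related genes from -0.20 to -0.040, with -0.15 and -0.093 without replicates 1 and 2 of the controls. Without replicate 1 or 2 of both groups, which leaves 1 pair and no test, these medians were -0.12 and -0.18 for the 10 genes and -0.10 and -0.12 for the related genes. Signs turned for Fbn1 (0.030 without replicate 1 labelled Prox1 KO) and Lox (-0.018 with quantile normalization, -0.0079 and -0.0012 without replicate 1 labelled Prox1 KO or replicate 2 of the controls), neither of which was called. The length used for the length-scaled level left the ratio of the highest to the lowest gene at 56.9 against 61.6.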
